A study of Mus musculus with 4 samples.

Results

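Heat shock proteins and the cytosolic chaperonin fold newly made and damaged proteins, and 31 genes of this machinery were followed here in mouse osteoclast precursor cells treated with DKK1 or with PBS. The 31 symbols were matched exactly in the name column of the gene count table. Each matched 1 gene ID, so 31 of the 53801 genes listed were members. All 31 passed the filter on low counts that left 17462 genes to test, and 30 of them lay above the median level of the genes tested. By role they comprised 7 HSP70 and HSP110 genes, 3 HSP90 genes, 4 J-domain protein genes, 5 cochaperone genes, 1 small heat shock protein gene, 2 genes of the mitochondrial chaperonin, 8 genes of the cytosolic chaperonin and the transcription factor gene Hsf1.

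The precursor cells came from 2 wild-type C57BL/6 mice. The titles number the precursor cells 1 and 2, and each number was assumed to stand for 1 of these mice. For each number, 1 library was made after 3 h with PBS and 1 after 3 h with DKK1 at 200 ng/ml, which gives 2 pairs, called here PBS 1 with DKK1 1 (precursor cells 1) and PBS 2 with DKK1 2 (precursor cells 2). DKK1 is a secreted antagonist of Wnt signalling that binds the coreceptors LRP5 and LRP6, and no agent other than PBS and DKK1 is named in the labels. The labels do not say from which tissue the precursors were taken or how they were cultured. Total counts were 53235399 in PBS 1, 53537927 in DKK1 1, 41163663 in PBS 2 and 46011873 in DKK1 2. The defining receptors of the lineage were present in every library: Csf1r, the receptor of macrophage colony-stimulating factor, had between 99567 and 114849 counts, and Tnfrsf11a, which encodes the RANKL receptor RANK, had between 7622 and 11282.

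As background, HSP70 proteins hold exposed hydrophobic stretches of unfolded proteins, J-domain proteins bring clients to them and start their ATP hydrolysis, and HSP110 proteins exchange their nucleotide. HSP90 matures kinases, steroid receptors and other clients with the help of cochaperones, of which Stip1 (HOP) links HSP90 to HSP70. The cytosolic chaperonin, called TRiC or CCT, is a double ring built from 8 related subunits that folds actin and tubulin. HSF1 is the transcription factor that raises many of these genes under heat or proteotoxic stress, by binding inverted repeats of a short unit, the heat shock element.

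A heat shock element of 3 units was searched in the RefSeq promoter windows of assembly GRCm38.p6, which run from 250 bases before to 50 bases after each gene's start. The motif searched was GAANNTTCNNGAA or, on the other strand, TTCNNGAANNTTC. It occurred in 198 of 32851 windows (0.603%) and for 179 of 27025 symbols (0.662%). Of the 31 members, 25 had a window and 5 of these held a match (20.0%): Hspd1, Hspe1, Hsph1, Chordc1 and Dnajb6. A match is a description of letters and shows no binding. Only this exact form was searched, so a window without a match may hold another form of the element. Cct4, Hsf1, Hsp90aa1, Hsp90ab1, Hspa8 and Hspa9 had no window in the table. The matching stretches are shown because they are what these 5 members share in sequence; capitals mark the bases in a match.
Hspe1 and Hspd1: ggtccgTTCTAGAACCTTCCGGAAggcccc
Hsph1: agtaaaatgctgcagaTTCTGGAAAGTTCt
Chordc1: ccgGAACGTTCGGGAAAATTCCTGAAgcag
Dnajb6: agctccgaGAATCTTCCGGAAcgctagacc

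The first stretch (chr1:55088053-55088082, plus strand as printed) lies between the start of Hspe1 and 1 of the 2 Hspd1 starts in the RefSeq table, and in GENCODE M21 it falls in an untranslated part of an Hspd1 exon. The window of the other Hspd1 start, which lies past that of Hspe1, held no match. Its 2 overlapping matches span positions -89 to -72 from the start of Hspe1, where negative positions lie before a start. The Hsph1 stretch (chr5:149636287-149636316, minus strand) held its match at positions 37 to 49. In Chordc1 (chr9:18292260-18292289, plus strand) 3 overlapping matches ran from -4 to 19, across the start. In Dnajb6 (chr5:29735844-29735873, plus strand) the match ran from -46 to -34. Hsph1 and Dnajb6 each had another start whose window also held a match. Their positions are given from the start farther upstream.

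Levels of different genes were compared per length, with the FPKM values (fragments scaled to gene length and library size) of the authors' deposited tables, which list 30 members and were made separately for the 2 pairs. Hsp90ab1, the constitutive cytosolic HSP90, was the most abundant member in every library, at 433.7 FPKM in PBS 1, 458.9 in DKK1 1, 349.9 in PBS 2 and 353.6 in DKK1 2. Hspa8, the constitutive HSC70, followed at 194.9, 227.1, 240.8 and 237.5 FPKM in the same order, per the authors' deposited tables. These values are of its own gene model alone. Over the libraries together that model held 57.3% of the counts of Hspa8 summed with its overlapping and near-identical models. The rank of Hspa8 below Hsp90ab1 and its order between libraries thus depend on how reads were assigned. The stress-inducible HSP70 genes stood far lower, between 3.67 and 4.95 FPKM for Hspa1a and between 5.02 and 11.3 FPKM for Hspa1b. Hspa4l, an HSP110 family gene, was the lowest of the 30 in every library, at 1.57 to 1.88 FPKM.

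**Figure D1:**
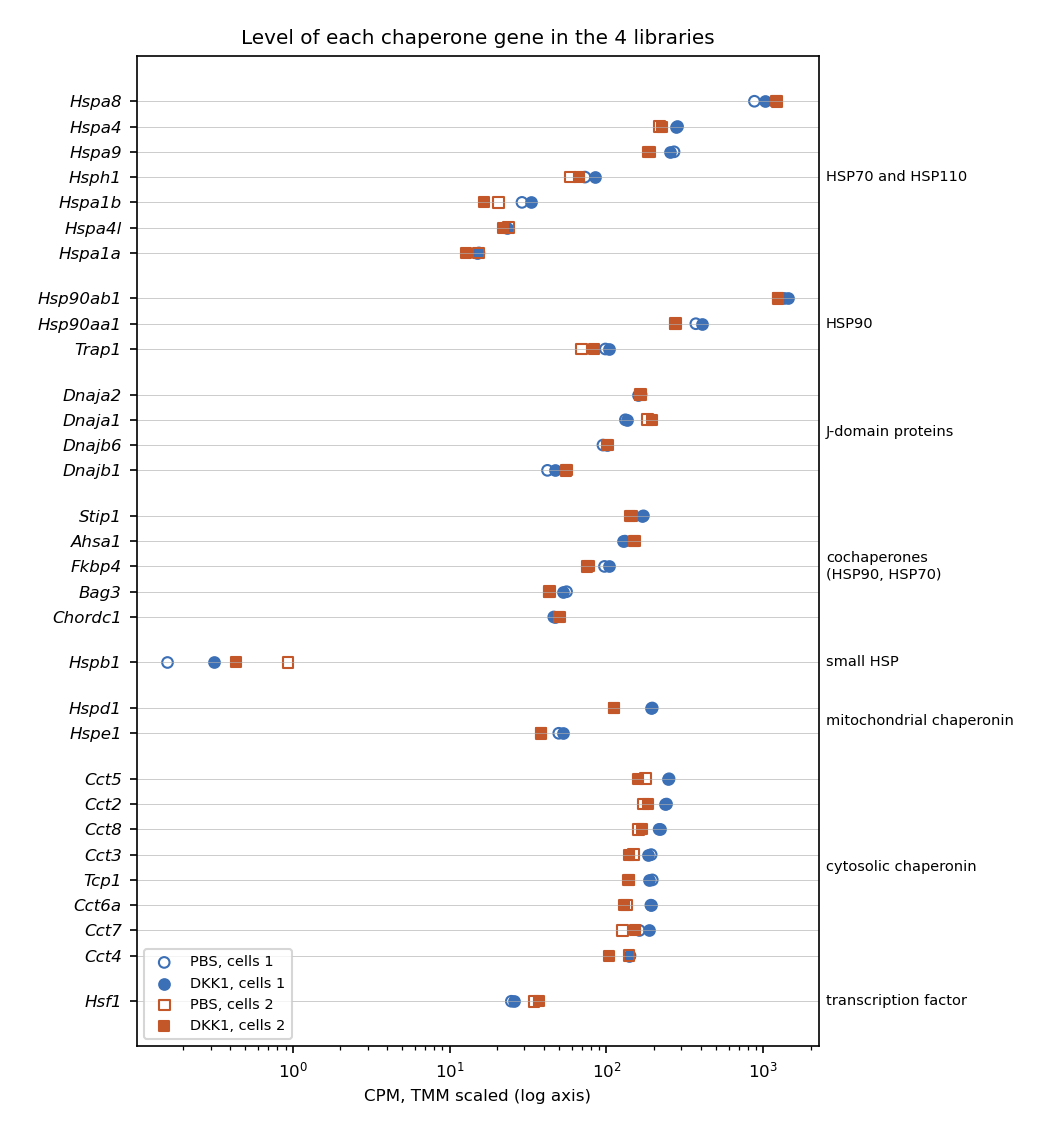
Level of each of the 31 members in the 4 libraries, in CPM (counts scaled to library size, here with TMM factors) on a log axis; circles are precursor cells 1 and squares precursor cells 2, open for PBS and filled for DKK1. Open and filled symbols of the same shape lie close together for most genes, and Hspb1 is the one gene below 1 CPM.

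Within the cytosolic chaperonin, whose ring holds its 8 subunits in equal number, transcript levels per length were unequal. In the authors' deposited tables Cct2 was the highest subunit in every library, at 90.3 FPKM in PBS 1, 88.5 in DKK1 1, 57.3 in PBS 2 and 61.0 in DKK1 2. The lowest subunit was Cct7 in PBS 1 (22.9 FPKM), DKK1 1 (26.3) and PBS 2 (15.9), and Cct3 in DKK1 2 (18.6), per the authors' deposited tables. The highest subunit exceeded the lowest by 3.94 times in PBS 1, 3.37 times in DKK1 1, 3.61 times in PBS 2 and 3.28 times in DKK1 2. Cct6a is annotated as a processed transcript in GENCODE M21, the other 30 members as protein-coding, and the gene lengths behind the authors' values are not given.

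**Figure D2:**
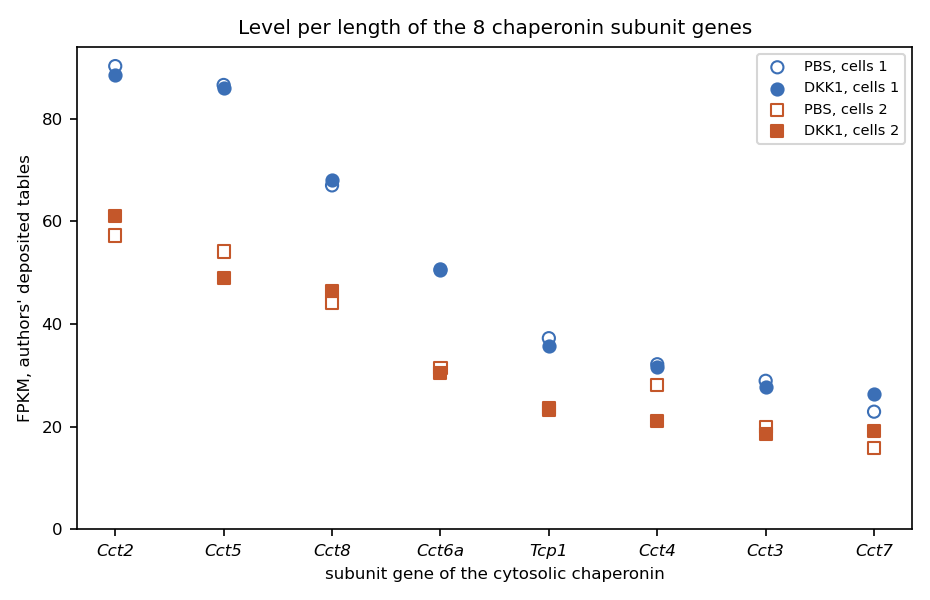
FPKM of the 8 subunit genes of the cytosolic chaperonin in the 4 libraries, from the authors' deposited tables, ordered by mean level. Cct2 and Cct5 lie highest and Cct3 and Cct7 lowest, and the squares (precursor cells 2) lie below the circles (precursor cells 1) for each subunit. That separation depends on the scaling: in TMM-scaled CPM, Cct4 in PBS 2 (139.6) lay between PBS 1 (141.3) and DKK1 1 (138.7).

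The first comparison asks whether 3 h of DKK1 changed these genes against PBS on the same precursor cells. None of the 31 members passed edgeR's quasi-likelihood test at an adjusted p under 0.05, where 9 of 17462 genes did (0.0515%). Of those 9 genes, 7 were higher (0.0401%) and 2 lower (0.0115%). At an unadjusted p under 0.05, edgeR gave 2 members, both higher. That is 6.45% of members, against 4.47% of all genes in either direction and 2.04% higher. The median log2 change of the members was 0.0063, against -0.0015 over all genes tested, and their median absolute change was 0.055, against 0.121. The change had the same sign in both pairs for 20 of 31 members (64.5%), against 51.7% of all genes, with 11 higher in both (25.6% of all genes) and 9 lower in both (26.1% of all genes). Apart from Hspb1, no member's 95% interval reached beyond the -0.47 of Cct4 below or the 0.37 of Cct7 above, on the log2 scale and not adjusted for the number of genes.

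Cct7, a subunit of the cytosolic chaperonin (chromosome 6, 85451514 to 85468475, plus strand, GRCm38), had 9172 counts in PBS 1, 10551 in DKK1 1, 4898 in PBS 2 and 6603 in DKK1 2. Both DKK1 libraries lay above the PBS library of the same precursor cells, by 0.20 and 0.26 log2 CPM, but the 2 groups overlapped in CPM. The fitted log2 change was 0.23 (95% interval 0.08 to 0.37, 1.17-fold), with an unadjusted p of 0.00919 and an edgeR adjusted p of 0.959. Over the alternatives run on all 4 libraries its adjusted p lay between 0.662 and 1.00. Among the 8 subunits the fitted log2 changes ran from -0.22 (Cct4) to 0.23 (Cct7), with a median of -0.027.

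Hsph1 encodes HSP110 (HSP105), the nucleotide exchange factor of HSP70, and lies on chromosome 5 (149614287 to 149636376, minus strand). It had 4122 counts in PBS 1, 4761 in DKK1 1, 2282 in PBS 2 and 2915 in DKK1 2. Its log2 CPM was 0.20 higher with DKK1 in precursor cells 1 and 0.18 higher in precursor cells 2, and again the 2 groups overlapped. The fitted log2 change was 0.19 (95% interval 0.02 to 0.37, 1.14-fold), with an unadjusted p of 0.0369 and an edgeR adjusted p of 0.959.

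The stress-inducible HSP70 genes did not pass either threshold with DKK1. Hspa1a had 869 counts in PBS 1, 852 in DKK1 1, 589 in PBS 2 and 556 in DKK1 2, a fitted log2 change of -0.13 (95% interval -0.46 to 0.19). Its neighbour Hspa1b had 1634, 1872, 793 and 719 counts in the same order, so DKK1 was above PBS in precursor cells 1 and below it in precursor cells 2. The fitted log2 change of Hspa1b was -0.02 (-0.38 to 0.33). The 2 genes lie side by side on chromosome 17, are 99.2% identical over 2201 aligned bases of their transcripts, and their split of the counts is uncertain. Summed with each other and with an overlapping model they had 2593, 2834, 1451 and 1343 counts, and a log2 change of -0.06.

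Dnajb1, the HSP40 partner of HSP70, had 2377 counts in PBS 1, 2654 in DKK1 1, 2133 in PBS 2 and 2423 in DKK1 2. Its fitted log2 change was 0.08 (95% interval -0.12 to 0.29). Bag3, a nucleotide exchange factor of HSP70 that serves selective autophagy, had 3144, 3020, 1675 and 1857 counts and a log2 change of -0.04 (-0.24 to 0.15). Both intervals include 0. Hspb1, the small heat shock protein HSP27, was barely counted, with 9 counts in PBS 1, 18 in DKK1 1, 36 in PBS 2 and 19 in DKK1 2. Its log2 CPM was 0.84 higher with DKK1 in precursor cells 1 and differed by -1.02 in precursor cells 2. The 95% interval of the fitted change ran from -2.06 to 1.28.

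Hsf1 had 1398 counts in PBS 1, 1465 in DKK1 1, 1332 in PBS 2 and 1618 in DKK1 2, a fitted log2 change of 0.09 (95% interval -0.15 to 0.32). The cytosolic HSP90 genes were not called: Hsp90aa1, the inducible form, had 20964, 23015, 10677 and 11935 counts in the same order of libraries and a log2 change of 0.06 (-0.08 to 0.20). For Hsp90ab1 the counts were 76840, 81446, 47819 and 54145 and the log2 change 0.04 (-0.05 to 0.14). Trap1, the mitochondrial HSP90, had 5556, 5881, 2687 and 3617 counts and a log2 change of 0.16 (-0.03 to 0.35). Each of these intervals includes 0.

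**Figure D3:**
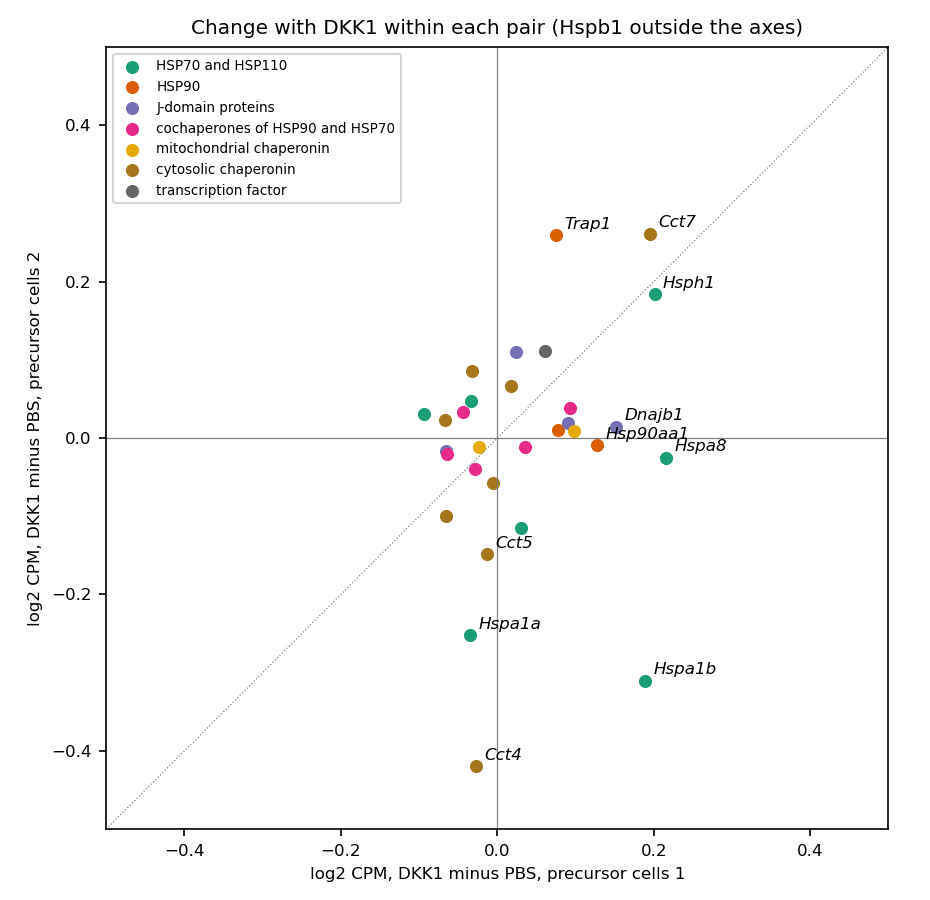
Change with DKK1 within precursor cells 1 (horizontal axis) and within precursor cells 2 (vertical axis), in log2 CPM, for 30 members coloured by role; the dotted line marks equal change. Cct7 and Hsph1 lie near the line at about 0.2, while Hspa1b, Hspa8 and Cct4 lie off it.

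Within a pair each difference rests on 1 library against 1, so that only counting error can be given, and differences between the pairs were not tested. Cct4 had 7982 counts in PBS 1 and 7872 in DKK1 1, a log2 ratio of -0.03 (95% counting interval -0.07 to 0.02), but 5396 in PBS 2 and 4538 in DKK1 2, a log2 ratio of -0.42 (-0.48 to -0.36). Cct4 was 1 of 3 members whose DKK1 libraries both lay below both PBS libraries in CPM (9.68%, against 8.31% of all genes); the other two were Hspa1a and Dnaja2. Dnajb6 was the 1 member with both DKK1 libraries above both PBS libraries (3.23%, against 7.93% of all genes). The counting intervals cover counting error only. Of the 31 members, 11 had differences of opposite sign in the 2 pairs.

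The authors' deposited tables test each pair alone, 1 library against 1, by a test that is not stated, and so compare libraries and not conditions. No member of the 30 listed in the authors' deposited tables was called changed in either pair, where the authors called 122 (0.921%) and 130 genes (0.987%). At an FDR under 0.05 in the authors' deposited tables there were 3 of the 30 members in precursor cells 1, against 19.0% of genes listed, and 4 in precursor cells 2, against 16.7%. Cct7 was among them in both pairs, with log2 ratios of 0.20 and 0.27 in the authors' deposited tables. The others were Hspa8 (0.22) and Hsph1 (0.20) in precursor cells 1, and Cct4 (-0.41), Hspa1b (-0.30) and Trap1 (0.26) in precursor cells 2.

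The remaining members gave fitted log2 changes with DKK1 between -0.08 (Cct3) and 0.10 (Hspa8), and each 95% interval included 0. Among the HSP70 and HSP110 genes these were Hspa4 (0.006), Hspa4l (-0.04), Hspa8 (0.10) and the mitochondrial Hspa9 (-0.03). Among J-domain genes they were Dnaja1 (0.07), Dnaja2 (-0.04) and Dnajb6 (0.06). Among cochaperones they were Stip1 (-0.03), Ahsa1 (-0.005), Fkbp4 (0.07) and Chordc1 (0.01), and in the mitochondrial chaperonin Hspd1 (-0.02) and Hspe1 (0.06). In the cytosolic chaperonin they were Tcp1 (-0.02), Cct2 (0.03), Cct3 (-0.08), Cct5 (-0.08), Cct6a (-0.03) and Cct8 (0.04).

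Other chaperone genes were not called either. Of 50 further cytosolic and mitochondrial chaperone and cochaperone genes tested, none was called with DKK1 by edgeR and 2 had an unadjusted p under 0.05. These were the J-domain gene Dnaja4, with 44 counts in PBS 1, 102 in DKK1 1, 30 in PBS 2 and 90 in DKK1 2 (log2 change 1.29, edgeR adjusted p 0.959), and the mitochondrial protease subunit gene Clpp (log2 change -0.36, edgeR adjusted p 0.959). Dnaja4 thus lay above PBS in both pairs. Of 17 endoplasmic reticulum chaperone genes none was called and 1 had an unadjusted p under 0.05: P4hb, protein disulfide isomerase, at -0.10. The next by p was Dnajb11, an endoplasmic reticulum J-domain gene, at 0.12.

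The second comparison sets precursor cells 2 against precursor cells 1, in the same model. It compares these 2 preparations, since neither was replicated, and its p-values rest on how far the difference varied between the PBS and the DKK1 libraries. edgeR called 24 of 31 members at an adjusted p under 0.05 (77.4%, against 33.9% of all genes). Of these, 19 were lower in precursor cells 2 (61.3%, against 15.9% of all genes) and 5 were higher (16.1%, against 17.9%). With members summed with overlapping and near-identical gene models, 21 were called lower and 4 higher. In that setting Hspa1a and Hspa1b share 1 sum, and Hspa8, among the 5 above, turned lower. The members are abundant genes, and of the 9196 genes with a mean of at least 10 CPM 22.6% were called lower and 25.4% higher. The median log2 difference of the members was -0.32, against -0.003 over all genes tested, and 29 of 31 had the same sign within PBS and within DKK1 (93.5%, against 77.4% of all genes). In CPM, both libraries of precursor cells 2 lay below both of precursor cells 1 for 19 members (61.3%, against 35.3% of all genes) and above them for 7 (22.6%, against 33.7%). In bulk RNA, fewer cells of a type and less RNA per cell cannot be told apart.

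Fewer members, and fewer of all genes, were called when 1 library was left out. Those fits had no treatment term and left 1 preparation with 1 library, assumed to vary like the others. The median log2 difference of the members in them ran from -0.34 to -0.27. With library totals in place of TMM scaling, which moves the median of all genes by about -0.17, 20 members were called lower and 2 higher, against 4193 and 2196 of all genes (2784 lower and 3129 higher with TMM). Called lower under each alternative and each library left out were 9 members: Hspd1, Cct5, Cct6a, Tcp1, Cct2, Cct8, Hsp90aa1, Hspa9 and Hspa4. Among those called higher Dnaja1 alone was so.

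**Figure D4:**
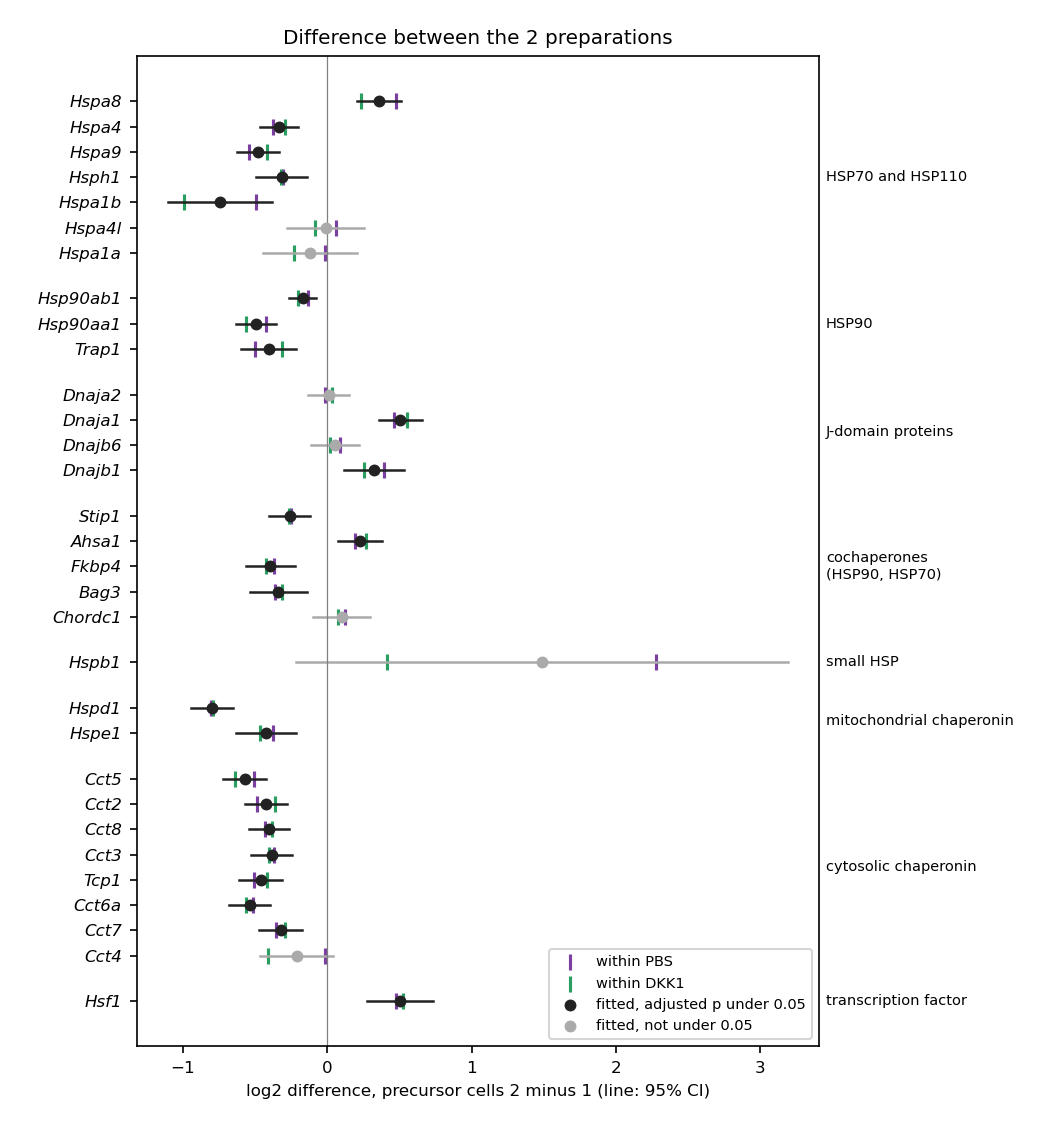
Fitted log2 difference between precursor cells 2 and precursor cells 1 for each member (points, with 95% intervals as lines), with the difference within PBS and within DKK1 as ticks; black points have an edgeR adjusted p under 0.05 and grey points do not. Each subunit of the cytosolic chaperonin lies below 0, Hspd1 lies farthest below, and Hsf1, Dnaja1 and Dnajb1 lie above.

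Genes of the cytosolic chaperonin were lower in precursor cells 2. All 8 subunit genes had negative differences, under each of the 4 scalings run, with a median log2 difference of -0.42. Of the 8, 7 were called lower, against 15.9% of all genes. Summed over the 8 genes the level was 1690 CPM of the library total in PBS 1, 1686 in DKK1 1, 1125 in PBS 2 and 1111 in DKK1 2. Both libraries of precursor cells 2 therefore lay below both of precursor cells 1, with little difference between treatments. These sums carry no TMM factors, and library totals put the median difference of all genes between preparations at -0.17.

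Cct5, the subunit gene with most counts over the 4 libraries together, had 14157 in PBS 1, 14094 in DKK1 1, 6826 in PBS 2 and 6924 in DKK1 2. Its log2 difference was -0.57 ± 0.06 (SE; 1.49-fold lower; edgeR adjusted p 0.00127). Cct6a had 10835, 10843, 5198 and 5619 counts and a difference of -0.54 ± 0.06 (edgeR adjusted p 0.00136). These were the largest differences among the subunits. Tcp1, which encodes the alpha subunit, had 11069, 10617, 5328 and 6087 counts in the same order and a difference of -0.46 ± 0.06. For Cct2 the counts were 13643, 13401, 6675 and 7968 (-0.42 ± 0.06) and for Cct8 12233, 12445, 6214 and 7317 (-0.41 ± 0.06). The libraries of the 2 preparations did not overlap in CPM for any of these 5 genes. Cct3 had 10887, 10456, 5772 and 6058 counts (-0.39 ± 0.06), and Cct7 differed by -0.32 ± 0.06. Cct4, the subunit gene with fewest counts over the 4 libraries together, was not called (-0.21 ± 0.10, edgeR adjusted p 0.167), and its 4 libraries overlapped between preparations only through PBS 2, which lay at 139.6 CPM between PBS 1 (141.3) and DKK1 1 (138.7). Without PBS 2 it was called (-0.42, adjusted p 0.0304; 0.0304 to 0.909 over the libraries left out), as it was with library totals (-0.38, adjusted p 0.0401; 0.0401 to 0.287 over its alternatives on 4 libraries).

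The mitochondrial chaperonin showed the largest difference of any member called. Hspd1, which encodes HSP60, had 11060 counts in PBS 1, 10930 in DKK1 1, 4325 in PBS 2 and 4826 in DKK1 2. Its log2 difference was -0.80 ± 0.06 (1.74-fold lower; edgeR adjusted p 0.000304), at -0.81 within PBS and -0.79 within DKK1. Hspe1, its lid protein HSP10, had 2804, 3016, 1476 and 1671 counts and a difference of -0.42 ± 0.08 (edgeR adjusted p 0.0129). These genes are the divergent pair whose shared stretch is printed above. In GENCODE M21 their exons overlap on opposite strands, and the sources used here do not say whether counting used strand. Summed as 1 model, Hspe1 with Hspd1 had 13864, 13946, 5801 and 6497 counts and differed by -0.71.

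Among HSP90 genes all 3 were called lower in precursor cells 2, against 15.9% of all genes. Their differences were negative under each of the 4 scalings run. Hsp90aa1 differed by -0.49 ± 0.06 (1.41-fold lower; edgeR adjusted p 0.00163), with no overlap between the preparations. Trap1 differed by -0.41 ± 0.08 and Hsp90ab1 by -0.17 ± 0.04, the smallest difference called. The call of Hsp90ab1 ended with DESeq2 (adjusted p 0.0651) and with no filter on low counts (adjusted p 0.0526), with a range of 0.00223 to 0.0651 over its alternatives on 4 libraries.

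Of the 7 HSP70 and HSP110 genes 6 had negative differences and 4 were called lower, against 15.9% of all genes. Hspa9, the mitochondrial HSP70 mortalin, had 15227 counts in PBS 1, 14333 in DKK1 1, 7147 in PBS 2 and 8211 in DKK1 2, a log2 difference of -0.48 ± 0.06 (edgeR adjusted p 0.0022). Hspa4, an HSP110 family member, had 16035, 15734, 8454 and 9828 counts and differed by -0.34 ± 0.05. Hsph1 differed by -0.31 ± 0.07 (edgeR adjusted p 0.0203). The libraries of the 2 preparations did not overlap for these genes. Hspa1b differed by -0.75 ± 0.15 (edgeR adjusted p 0.0123) and Hspa1a by -0.12 ± 0.13 (adjusted p 0.527), and summed as 1 model the pair differed by -0.49 (adjusted p 0.0257). Hspa4l differed by -0.01 ± 0.11 and was not called.

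Hspa8 was called higher in precursor cells 2 from its own counts, which were 49530 in PBS 1, 57808 in DKK1 1, 47191 in PBS 2 and 52160 in DKK1 2 (log2 difference 0.36 ± 0.06, 1.28-fold; edgeR adjusted p 0.00819). That direction changed when similar gene models were added. The processed pseudogene Gm15459 on chromosome 5 is 99.7% identical to the Hspa8 transcript over 1941 bases, and had 26523, 29488, 8336 and 9618 counts. This is 53.5% and 51.0% of the Hspa8 count in precursor cells 1 but 17.7% and 18.4% in precursor cells 2. Gm26825, annotated as a lincRNA on the opposite strand of the same bases, had 26916, 29812, 8070 and 8837 counts. The sources used here do not say whether counting used strand, so a sum of both models may count some reads in duplicate.

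Summed with all overlapping and near-identical models, Hspa8 had 104851 counts in PBS 1, 119129 in DKK1 1, 64739 in PBS 2 and 71845 in DKK1 2. The log2 difference then turned to -0.25 (adjusted p 0.0159), and with Gm26825 left out of the sum to -0.02 (adjusted p 0.853). The second of these sums was chosen after the data were seen. Over all its alternatives on 4 libraries the adjusted p of Hspa8 lay between 0.000293 and 0.853. Hspa8 is therefore given with no direction between the preparations. Its change with DKK1 was small either way, at 0.10 alone and 0.08 summed.

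**Figure D5:**
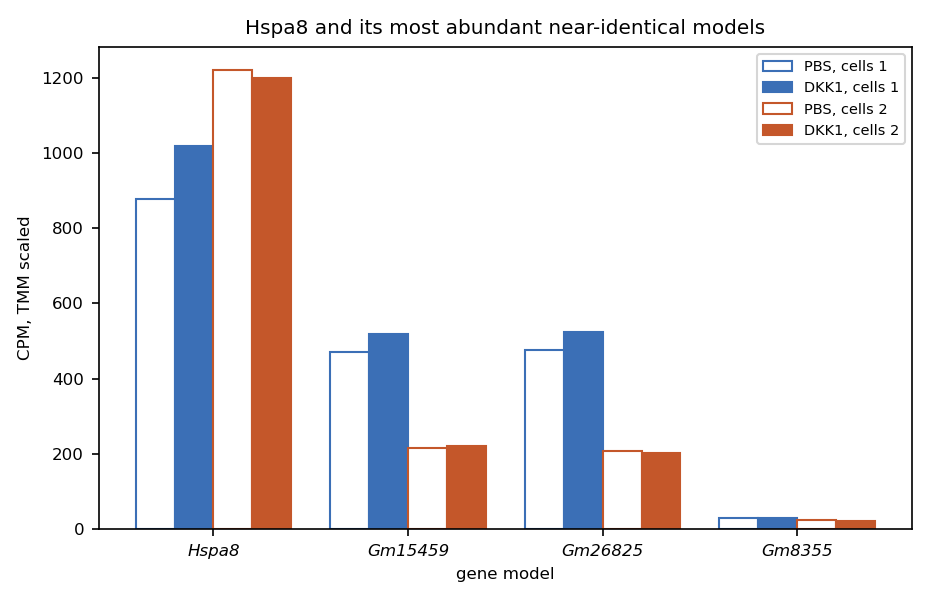
Level of Hspa8 and of its 3 most abundant near-identical gene models in the 4 libraries, in CPM scaled by TMM (bars, 1 library each). Hspa8 is higher in precursor cells 2, whereas Gm15459 and Gm26825 are higher in precursor cells 1.

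The J-domain genes Dnaja1 and Dnajb1, 2 of the 4 of that role, and Hsf1 were called higher in precursor cells 2. Of all genes 17.9% were called higher. Dnaja1 had 7458 counts in PBS 1, 7618 in DKK1 1, 7032 in PBS 2 and 8538 in DKK1 2, a log2 difference of 0.51 ± 0.06 (1.42-fold higher; edgeR adjusted p 0.00195). An exon of Smu1, with 36.0% to 57.8% as many counts, overlaps Dnaja1 on the opposite strand, and the sum with all such models differed by 0.36. Dnajb1 differed by 0.32 ± 0.08 (edgeR adjusted p 0.0327). It was called in 6 of its 10 alternatives on 4 libraries. Over these the adjusted p ran from 0.0254 to 0.209, the highest with library totals (log2 difference 0.15). Dnaja2 (0.009 ± 0.057) and Dnajb6 (0.05 ± 0.07) were not called, and their sign turned with library totals. Hsf1 differed by 0.50 ± 0.09 (1.42-fold higher; edgeR adjusted p 0.0103), with both libraries of precursor cells 2 above both of precursor cells 1. Hsf1 thus lay above 0 where 22 of the 31 members lay below it.

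Cochaperones were split. Fkbp4, the HSP90 immunophilin FKBP52, had 5485 counts in PBS 1, 5880 in DKK1 1, 2911 in PBS 2 and 3362 in DKK1 2, a log2 difference of -0.39 ± 0.07 (edgeR adjusted p 0.00775). Bag3 differed by -0.34 ± 0.08 (edgeR adjusted p 0.0235). Stip1, with 9718, 9577, 5581 and 6104 counts, differed by -0.26 ± 0.06 (edgeR adjusted p 0.0189). Ahsa1, which stimulates the ATPase of HSP90, was higher: it had 7407, 7220, 5780 and 6653 counts and differed by 0.23 ± 0.06 (edgeR adjusted p 0.0354). Ahsa1 was called in 6 of its 10 alternatives on 4 libraries. Over these the adjusted p ran from 0.0244 to 0.504, the highest with library totals (log2 difference 0.06). Chordc1, another HSP90 cochaperone, differed by 0.10 ± 0.08 and was not called, with the sign turned under library totals. Hspb1 differed by 1.49 ± 0.69 and was not called at its low counts (edgeR adjusted p 0.154).

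Of the 5 members with a match to the motif, Hspd1, Hspe1 and Hsph1 were called lower in precursor cells 2. Dnajb6 and Chordc1 were not called. With DKK1 the fitted log2 changes of these 5 genes, in that order, were -0.02, 0.06, 0.19, 0.06 and 0.01. Of all 31 members 61.3% were called lower in precursor cells 2, and of all genes 15.9%. Hspd1 and Hspe1 share 1 matching stretch.

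Of the 50 further cytosolic and mitochondrial chaperone genes, 4 were called higher and 16 lower in precursor cells 2, with a median log2 difference of -0.18. Of all genes tested, 17.9% were called higher and 15.9% lower. The 4 with the smallest p were Ptges3, the HSP90 cochaperone p23 (-0.48), Hspa2, an HSP70 (0.84), Fkbp5, the immunophilin FKBP51 (-0.49), and the J-domain gene Dnajc9 (-0.59). Of 17 endoplasmic reticulum chaperone genes 10 were called lower and none higher, with a median of -0.24. The first of these by p were P4hb (-0.37), Sdf2l1 (-0.54) and the disulfide isomerase genes Pdia6 (-0.43) and Pdia4 (-0.38). Hspa5, which encodes the endoplasmic reticulum HSP70 BiP, differed by -0.05 and was not called.

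The preparations differed in cell type markers as well. Sums in this comparison are CPM of the library total, without TMM factors. The summed level of 12 neutrophil markers was 5861 CPM in PBS 1, 5705 in DKK1 1, 9358 in PBS 2 and 9516 in DKK1 2. Of the 12, 10 were called higher in precursor cells 2 and 1 lower, against 17.9% and 15.9% of all genes. The summed level of 13 monocyte and macrophage markers was 34410, 34150, 23610 and 24180 CPM, but 1 gene, the lysozyme gene Lyz2, set that order. Without Lyz2 the sum of the other 12 was 7986, 7884, 10190 and 10310 CPM, higher in precursor cells 2. Most of that rise lay in Ly6c2 (log2 difference 2.84) and Fcgr1 (2.01). Of the 13, 6 were called higher and 3 lower. B cell and plasma cell markers summed to between 481.1 and 572.9 CPM in precursor cells 1 and between 874.2 and 876.9 in precursor cells 2. Most of these 15 markers went against the sum: 9 were called lower in precursor cells 2 and 5 higher, with a median log2 difference of -1.78. Erythroid markers summed to 100.1 to 174.4 CPM over the 4 libraries, mast cell and basophil markers to 104.9 to 124.0, stromal markers to 98.3 to 155.7 and T and NK cell markers to 33.4 to 44.9. Car1, Cma1 and Tpsab1 were at 0 counts in every library. The part of these differences in the chaperone genes was not tested.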

How the data were processed

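RNA sequencing of 4 libraries (2 mice, each with PBS and DKK1) was analysed. Reads were processed with fastp and HISAT2 on mm10, per the submitters' processing notes; no source used here gives the annotation, the counting program or its strand setting. The deposited table holds raw counts per gene. The FPKM values, log2 ratios, p-values and FDR of each pair come from the authors' deposited tables, whose test is not stated, per the file headers. Their counts equalled those of the count table (0 differing).

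The members and gene lists were chosen with earlier results of these data known. Genes passing filterByExpr (17462 of 26361 with a count) were fitted with edgeR 4.0.16 quasi-likelihood (TMM; R 4.3.3), with terms for mouse and treatment and 1 residual degree of freedom; p-values are two-sided and Benjamini-Hochberg adjusted over all tested genes, with a threshold of 0.05. CPM is scaled by TMM unless called CPM of the library total. Within-pair values are log2 CPM with a prior count of 2, and counting intervals (95%) are exact binomial (SciPy 1.17.1). The number in each title was taken as the mouse, since the protocol names 2 mice, and pairs the libraries; over genes, the deviations of same-numbered libraries had a correlation of 0.726, and the mice separated on the first principal component (76.1% of variance). Named genes were all 31 members by role, the called genes with smallest p (up to 4, or 2 where none was called) of each other chaperone list, and summed levels of cell type lists.

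Gene positions are from GENCODE M21 (GRCm38), which held 53706 of 53801 IDs. Models sharing exons with a member, or at least 95% identical over 100 bases or more and 50% of the shorter transcript (BLAST 2.17.0), were summed with it as an alternative. Promoter sequences are from RefSeq. Other alternatives were the scaling, the filter, DESeq2 1.42.0, limma-voom (limma 3.58.1), the legacy quasi-likelihood, no replicate block and leaving out libraries. Between preparations, the fits without a block left out the treatment term. On simulated counts with 200 changed genes, the fit recovered 68.2% of those changed 1.5-fold, the smallest change simulated. Of its 178 calls, 9 were false. Each member's fitted change with DKK1 was smaller than 1.5-fold, so the simulation does not show whether such changes would be found.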

Additional observations from a re-analysis of the deposited data

Results flagged for a closer look

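In 3 members the change with DKK1 went opposite ways in the 2 pairs, each with a 95% counting interval that excluded 0. With 1 library per pair and treatment the difference between pairs was not tested. This rule was not applied to all genes, of which 51.7% changed the same way in both pairs, against 64.5% of the members. At high counts the intervals are narrow and exclude 0 for small differences. Hspa1b differed by 0.19 log2 (counting interval 0.09 to 0.29) in precursor cells 1 and by -0.31 (-0.46 to -0.16) in precursor cells 2. Hspa8 differed by 0.22 (0.20 to 0.23) in precursor cells 1 and by -0.025 (-0.043 to -0.007) in precursor cells 2. Hspa4 differed by -0.034 (-0.066 to -0.0025) and 0.048 (0.006 to 0.09), the smallest of these differences. Counting intervals leave out variation between cultures, and Hspa1b and Hspa8 have near-identical gene models, so that the assignment of reads to them is uncertain.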

How the results depend on the processing

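With DKK1, no member was called in any setting run, against 9 of all genes in the reported fit. That count of genes was 0 with no replicate block (116 at an unadjusted p under 0.05), 5 with upper-quartile scaling, 3 with library totals, 0 with no filter (911 at an unadjusted p under 0.05), 14 with a stricter filter, 46 with DESeq2, 2 with limma-voom, 3 with the legacy test, and also 0 with each library left out, in fits with no replicate block. The median change of members ran from -0.17 (without DKK1 1) to 0.15 with 1 library left out and no block, and was -0.1141 without PBS 2. Those fits leave 1 treatment with 1 preparation only, so they mix the change with DKK1 with the difference between preparations. The median was 0.024 within precursor cells 1 alone (without replicate 2) and 0.0096 within precursor cells 2 alone. Between preparations, the genes called were 3509 with no filter and 3194 to 4574 with 1 library left out (3346 without PBS 2), and the members called 11 to 19. The median difference of members was -0.38 with upper-quartile scaling, -0.50 with library totals, -0.36 within PBS alone, and -0.34 to -0.27 with 1 library left out (-0.28 without PBS 2). Hspa8 turned from 0.36 to -0.25 when summed with all partner models, and to -0.016 without Gm26825. Of the members called, 14 of 19 lower and 2 of 5 higher were called in each alternative on 4 libraries; those lost in at least 1 were Bag3, Cct7, Hsp90ab1, Hspa1b and Hsph1, and Ahsa1, Dnajb1 and Hspa8. With no treatment term in the edgeR fit, Hsph1 (adjusted p 0.0545) and Cct7 (adjusted p 0.0597) lost their calls between preparations. The causes of these moves were not tested. Limits are 2 mice, 1 library each per treatment, 1 residual degree of freedom, and gene models too similar for reads to be assigned with certainty.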
